A study of Mus musculus with 9 samples.

Results

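Metalloproteinases and their inhibitors were described in mouse lung as 9 genes, found through every probe set that the platform annotation assigns to their symbols alone. The proteases were Mmp2, Mmp3, Mmp12, Mmp14, Adamts1 and Adam17, and the inhibitors were Timp1, Timp2 and Timp3. They were represented by 21 of the 22626 probe sets of the arrays outside the control probe sets, and by 9 of 12393 named genes. The rule that picks the probe sets uses gene names and no measured value, although the genes were named with earlier results of these arrays known.

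The series holds 9 single-colour Affymetrix arrays of whole lung RNA from C57BL/6 mice, 3 for each of 3 groups. One group was labelled lung control, and no source used here says what those mice received. The other 2 groups were lungs taken 24 h or 48 h after 10 µg of exosome protein from B16-F10 cells was given through the tail vein. B16-F10 is a mouse melanoma line used as a model of spread to the lung, and exosomes are small membrane vesicles that cells release. The labels mention 3 mice per time point and an experiment done in triplicate, without saying whether an array held 1 mouse or a pool. All groups share strain and tissue, and no genetic change is labelled in any of them.

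Matrix metalloproteinases (MMPs) are zinc proteases that cut collagens, elastin, proteoglycans and many cell surface proteins, and most are made as inactive proenzymes that another protease must open. ADAM proteases release membrane proteins from the cell surface, and ADAMTS proteases cut proteoglycans in the matrix. Tissue inhibitors of metalloproteinases (TIMPs) block the active site of these enzymes. In lung they take part in development, in the turnover of the elastic fibre network and in the passage of leukocytes and tumour cells. An array reads the RNA of these genes and not the activity of the enzymes.

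The arrays were close to each other in overall signal, with Present calls for 69.9% to 72.6% of probe sets and medians of 173.5 to 184.9 signal units. Ratios of the 3′ to the 5′ control probe sets ran from 1.16 to 1.38 for actin and from 0.74 to 0.956 for Gapdh. Of the markers that define lung tissue, 9 of 10 for lung epithelium, 10 of 10 measured for fibroblasts, 10 of 10 measured for macrophages and 8 of 8 for endothelium were detected on all 9 arrays. Genes of heart muscle (8 of 9) and adipocytes (4 of 6 measured) were also detected on all arrays. The 3 arrays numbered 1 stood apart from the other 6 in many genes whatever their group, as given below for the proteases and inhibitors. The deposited table for the whole series holds the same values under other group labels. There the 24 h columns carry the values of the control files, the 48 h columns those of the 24 h files and the control columns those of the 48 h files. Names inside the sample files give 24 h and 48 h as the source descriptions in the sample labels do. For the control samples they give 0 h, which was taken to mean control. The names of replicates 2 and 3 end in that number, and those of replicate 1 carry no number. The labels are not free of conflict, since every title in the 48 h group carries a 24 h prefix ahead of its 48 h wording. That prefix was set aside, and the 48 h wording and the source description were followed. Every value here therefore follows the sample files, and each direction between groups depends on that choice.

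In these lungs 8 of the 9 genes were detected on all 9 arrays, by the authors' detection p below 0.05, in 19 of their 21 probe sets. Mmp12 was the exception, detected on 4 of 9 arrays. None of the 19 probe sets passed limma at a Benjamini-Hochberg adjusted p below 0.05 in any of the 3 comparisons between groups. The same was true of all 15886 probe sets tested, of which 0% were called in each comparison. Differences between group means of the 8 genes, by their brightest probe set, lay between -0.22 and 0.34 on the log2 scale. Over all 19 probe sets they lay between -0.33 and 0.49. By replicate number, tested across the groups, 5 of 19 probe sets passed, against 16.6% of all.

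Mmp2 encodes gelatinase A, which cuts denatured collagen and basement membrane type IV collagen. Control lungs gave Mmp2 signals of 1370, 1313.3 and 1181.2 units in replicates 1, 2 and 3. At 24 h they were 1303.8, 1142.5 and 1127.5, and at 48 h they were 1653.7, 1678.9 and 1070.5. The first and second 48 h arrays were the highest of all 9 and the third was the lowest of all, so the 48 h group enclosed the others. On the log2 scale after quantile normalisation the means were 10.34 ± 0.10 in control, 10.24 ± 0.11 at 24 h and 10.50 ± 0.34 at 48 h (SD, n = 3). The 48 h level was 1.2-fold the 24 h level (95% CI 0.926 to 1.55) and 1.12-fold the control level (0.864 to 1.44), and neither passed. A second Mmp2 probe set also had its highest arrays at 48 h, with 1205.9, 1296.5 and 828.7 units, but its lowest was 24 h replicate 3 at 746.3. Its log2 difference of 0.27 between 48 h and 24 h had the same sign in 3 of 3 same-number pairs, against 2 of 3 for the first probe set. Leaving out 48 h replicate 3, the Mmp2 log2 difference was 0.36 between 48 h and control and 0.46 between 48 h and 24 h, and without 48 h replicate 2 it was 0.05 and 0.15.

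Mmp14 encodes a membrane-anchored MMP (MT1-MMP) that opens proMMP2 at the cell surface with the help of TIMP2. The 250 bases before its RefSeq start are shown because its dimmer probe set gave the only group difference among the 19 with an unadjusted p below 0.05 in the pooled fit. The window lies at chr14:54431348-54431597 on the plus strand of GRCm38.p6, and capitals mark 2 GC boxes (GGGCGG) whose first bases lie at -19 and -13, counted back from the base before the start as -1.
Mmp14: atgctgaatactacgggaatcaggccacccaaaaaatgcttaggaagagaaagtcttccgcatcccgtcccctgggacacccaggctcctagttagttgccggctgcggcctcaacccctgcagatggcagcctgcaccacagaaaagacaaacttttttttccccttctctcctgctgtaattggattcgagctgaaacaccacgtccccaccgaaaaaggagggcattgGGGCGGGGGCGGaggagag
GC boxes, letters that the Sp family of factors is known to bind, were searched on both strands and occur in 32.7% of 32851 RefSeq promoter windows of the same length. Neither box overlaps an AP-1 or TATA match, of which the window has 0.

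Signals of the brighter Mmp14 probe set were 1330.3, 1124.2 and 934.7 units in control replicates 1, 2 and 3, 1241.1, 994.5 and 690 at 24 h, and 1228.9, 1138.4 and 829.2 at 48 h. Replicate 1 was highest and replicate 3 lowest in each of the 3 groups, and the groups overlapped. The log2 means were 10.14 ± 0.24 in control, 9.92 ± 0.42 at 24 h and 10.05 ± 0.28 at 48 h (SD, n = 3). No comparison passed, with a 24 h level 0.856-fold that of control (95% CI 0.602 to 1.22), higher in 0 of 3 same-number pairs. That log2 difference of -0.22 was -6.94e-06 without 24 h replicate 3, -0.10 without control replicate 1, -0.35 without control replicate 3 and -0.42 without 24 h replicate 1. The dimmer Mmp14 probe set gave 213.5, 158.8 and 129.3 units in control, 158.6, 98.2 and 149.2 at 24 h, and 217.2, 183 and 179.3 at 48 h. All 3 arrays at 48 h were above all 3 at 24 h, while control lungs spanned both. Its 48 h level was 1.4-fold the 24 h level (log2 difference 0.49, 95% CI 0.05 to 0.92), higher in 3 of 3 same-number pairs. By limma the unadjusted p was 0.0335 and the adjusted p 0.99995, so it did not pass. The brighter probe set differed by 0.13 in the same comparison (95% CI -0.37 to 0.64), higher in 2 of 3 pairs.

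**Figure D1:**
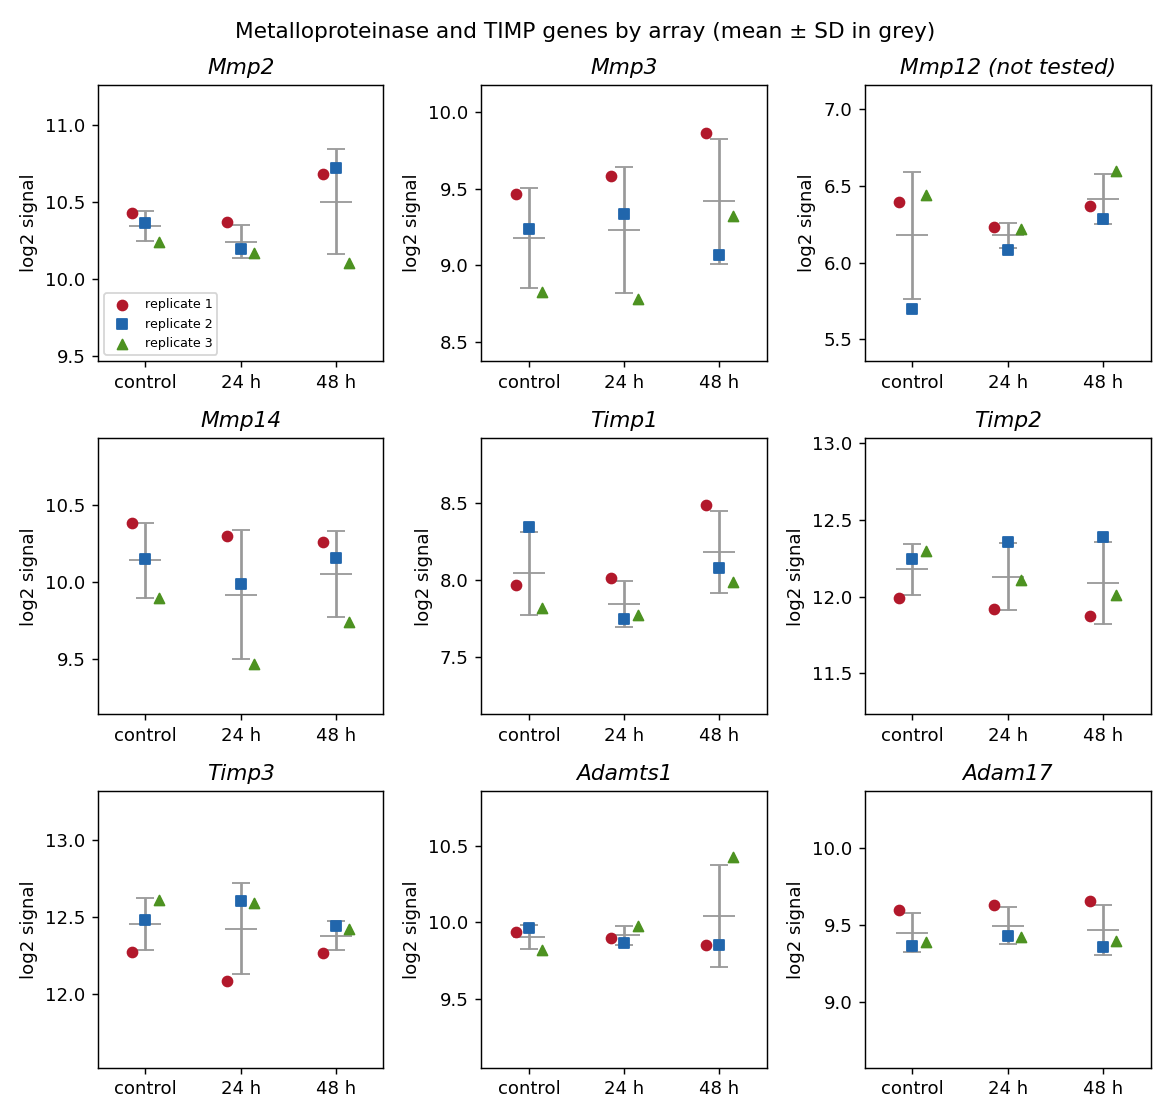
Log2 signal after quantile normalisation (vertical axes, each panel with its own range) of the brightest probe set of each of the 9 genes on each array, by group, with marker shape and colour for replicates 1, 2 and 3 and the group mean ± SD in grey. The 3 groups overlap in most panels, while replicate 1 is the highest array of each group for Mmp14, Mmp3 and Adam17 and the lowest for Timp2 and Timp3. The lone case without overlap is Mmp12 at 48 h over 24 h, which was not tested.

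Mmp3 and Mmp12 lie near each other on chromosome 9, with 1 gene (Mmp1b) between them in the RefSeq annotation, inside a cluster of MMP genes. Mmp3 encodes stromelysin-1, which cuts proteoglycans, laminin and fibronectin and can open other proMMPs. Mmp12 encodes macrophage elastase, named for its action on elastin. Their promoters are shown since one gene was detected on every array and its neighbour was near the detection limit. Capitals mark the letters of AP-1 sites (TGANTCA, known to bind Fos and Jun proteins) and of a TATA box (TATAAA). They were searched on both strands of GRCm38.p6, and all lie on the plus strand here. The Mmp3 window is chr9:7445572-7445821, and the Mmp12 window is that of the second of 2 RefSeq starts, chr9:7347124-7347373.
Mmp3: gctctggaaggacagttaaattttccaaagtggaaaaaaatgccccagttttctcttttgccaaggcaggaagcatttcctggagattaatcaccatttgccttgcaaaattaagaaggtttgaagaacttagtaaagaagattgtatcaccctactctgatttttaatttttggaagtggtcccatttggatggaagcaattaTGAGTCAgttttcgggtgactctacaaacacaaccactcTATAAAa
Mmp12: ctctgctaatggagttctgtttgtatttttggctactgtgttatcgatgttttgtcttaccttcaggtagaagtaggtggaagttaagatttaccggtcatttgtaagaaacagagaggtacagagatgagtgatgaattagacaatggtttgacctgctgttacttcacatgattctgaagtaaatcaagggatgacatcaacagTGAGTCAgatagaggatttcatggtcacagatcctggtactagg
The first base of the AP-1 site lies at -46 from the Mmp3 start and at -44 from that Mmp12 start, and the other Mmp12 window holds none. The TATA letters of Mmp3 begin at -7, and whether these or the AP-1 letters act at the starts was not tested. Of all promoter windows, 6.75% hold the AP-1 letters and 12.4% the TATA letters. Of the 9 genes 8 had a promoter in the table, with 9 windows in all, and the AP-1 letters were found in Mmp3 and Mmp12 alone.

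Mmp3 signals were 698.6, 589 and 442.4 units in control replicates 1, 2 and 3, 750.8, 621.9 and 422.5 at 24 h, and 917.2, 515.2 and 617.4 at 48 h. The array of 48 h replicate 1 was the highest, and each group spanned most of the range. The log2 means were 9.18 ± 0.32 in control, 9.23 ± 0.41 at 24 h and 9.42 ± 0.41 at 48 h (SD, n = 3). At 48 h the level was 1.18-fold that of control (95% CI 0.787 to 1.78), which did not pass. The log2 difference of 0.24 dropped to 0.02 when 48 h replicate 1 was left out and 0.07 when control replicate 3 was, and stood at 0.39 and 0.42 when control replicate 1 or 48 h replicate 2 was left out.

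For Mmp12 the signals were 70.4, 35.3 and 71.9 units in control lungs, 60.4, 49.7 and 59.5 at 24 h, and 64.1, 57.2 and 86.3 at 48 h. The probe set was called Present on 1 of 3 control arrays, 1 of 3 arrays at 24 h and 2 of 3 at 48 h, and it was not tested. Its log2 values were 6.18 ± 0.41 in control, 6.18 ± 0.08 at 24 h and 6.42 ± 0.16 at 48 h (SD, n = 3), higher at 48 h than at 24 h in 3 of 3 same-number pairs. These log2 values did not overlap between 24 h and 48 h, while the deposited signals did. Alveolar macrophages are a known source of Mmp12, and markers listed for alveolar and other macrophages were detected on all arrays (10 of 10 measured). In bulk lung, fewer cells of a type and less RNA per cell cannot be told apart, for this and every other gene.

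Adamts1 encodes a secreted protease of aggrecan and versican and lies next to Adamts5 on chromosome 16. Its signals were 976.9, 987.5 and 889.9 units in control replicates 1, 2 and 3, 932.3, 912.9 and 984.1 at 24 h, and 907, 915.8 and 1341.7 at 48 h. The array of 48 h replicate 3 lay above the other 8, which spanned 889.9 to 987.5. The log2 means were 9.91 ± 0.08 in control, 9.91 ± 0.06 at 24 h and 10.04 ± 0.33 at 48 h (SD, n = 3). The 48 h level was 1.1-fold that of control (95% CI 0.862 to 1.4). Without 48 h replicate 3 the log2 difference turned from 0.14 to -0.06, and without either of the other 48 h arrays it was 0.23.

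Adam17 encodes the sheddase that frees TNF, the TNF receptors, EGF receptor ligands and L-selectin from the cell surface. The brightest of its 3 probe sets gave 765.5, 644.2 and 663.8 units in control, 780.2, 667.6 and 667.8 at 24 h, and 785, 634.5 and 646.8 at 48 h. Replicate 1 was highest in every group and the other 6 arrays lay between 634.5 and 667.8. The group means on the log2 scale were 9.45 ± 0.13 in control, 9.49 ± 0.12 at 24 h and 9.47 ± 0.16 at 48 h (SD, n = 3). The 95% intervals were 0.848 to 1.26-fold at 24 h and 0.833 to 1.23-fold at 48 h against control, the narrowest of the 8 genes tested.

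Timp1 encodes the inducible TIMP, which blocks most secreted MMPs and forms a complex with proMMP9. Its promoter window is shown because, among the 8 genes by their brightest probe set, Timp1 had the highest 48 h level relative to 24 h. The window is chrX:20869916-20870165 on the plus strand of GRCm38.p6, and capitals mark 1 GC box, on the minus strand, with its first base at -8.
Timp1: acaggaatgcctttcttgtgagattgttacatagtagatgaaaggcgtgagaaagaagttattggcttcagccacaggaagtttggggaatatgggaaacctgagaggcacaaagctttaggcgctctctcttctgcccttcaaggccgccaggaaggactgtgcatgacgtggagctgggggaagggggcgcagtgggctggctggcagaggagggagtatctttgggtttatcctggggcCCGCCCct
Signals of Timp1 were 238.6, 308.8 and 214.6 units in control replicates 1, 2 and 3, 246, 192.6 and 203.4 at 24 h, and 339.6, 248.5 and 240.2 at 48 h. Within same-number pairs the 48 h array was above the 24 h array in 3 of 3, by 0.48, 0.33 and 0.22 on the log2 scale, although 48 h replicate 3 lay below 24 h replicate 1 in signal. The log2 means were 8.05 ± 0.27 in control, 7.84 ± 0.15 at 24 h and 8.19 ± 0.27 at 48 h (SD, n = 3). The 48 h level was 1.27-fold that of 24 h (95% CI 0.964 to 1.67), with an unadjusted p of 0.0826 and an adjusted p of 0.99995 in limma. Against control it was 1.1-fold (0.838 to 1.45), a log2 difference of 0.14 that turned to -0.01 without 48 h replicate 1. It was 0.03 when control replicate 3 was left out and 0.29 when control replicate 2 was. The difference from 24 h was 0.19 without 48 h replicate 1.

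The array of 48 h replicate 1, highest for Timp1 and Mmp3, was also the highest for neutrophil markers. Over the 7 neutrophil markers tested of 8 measured, the summed signal ran from 10794 to 15521 units in control, from 8224 to 13091 at 24 h and from 7424 to 27925 at 48 h, with the 27925 on that array. None of the 8 was at 0, and Cxcr2 was detected on 1 of 9 arrays. Mmp8, neutrophil collagenase, is itself among these 7 markers and so part of that sum. It stood at 544.6 units there against 81.4 to 156.9 on the other 8 arrays. Mmp9, gelatinase B, stood at 797.8 units against 128.9 to 289.8. The part of neutrophils in the Timp1 and Mmp3 values was not tested.

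Timp2 encodes the TIMP that blocks MMP2 and also links proMMP2 to MMP14. It had 6 probe sets, of which 5 were detected on all arrays and 1 on 0 of 9, with signals of 0.8 to 4.2 units. The brightest gave 3927.1, 4844.9 and 5061.5 units in control replicates 1, 2 and 3, 3846.6, 5505.9 and 4442.6 at 24 h, and 3737.2, 5367 and 4181 at 48 h. Replicate 1 was the lowest array of each group, and the groups overlapped. The log2 means were 12.18 ± 0.17 in control, 12.13 ± 0.22 at 24 h and 12.09 ± 0.27 at 48 h (SD, n = 3). The 48 h level was 0.941-fold that of control (95% CI 0.725 to 1.22).

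The other Timp2 probe sets did not share that order of arrays. Probe set 1420924_at gave 888.4, 437.2 and 309.5 units in control, 854.4, 444.4 and 559.5 at 24 h, and 744.1, 472 and 593.5 at 48 h, with replicate 1 highest in each group. Probe set 1433662_s_at ran from 3366.7 to 4564 units, again with replicate 1 highest in each group. Probe set 1450040_at ran from 1309.2 to 2044.3 units with overlapping groups. Probe set 1460287_at gave 3644.6, 3220.3 and 2994 units in control, 3777.5, 3709.6 and 3381.7 at 24 h, and 3181.1, 3246.8 and 2945.3 at 48 h. All 3 arrays at 48 h were below all 3 at 24 h, and control lungs overlapped both. That log2 difference of -0.20 (95% CI -0.46 to 0.06) did not pass limma, with an unadjusted p of 0.112. Against it, the other 4 tested Timp2 probe sets had differences of -0.05 to 0.07 in the same comparison.

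Timp3 encodes the TIMP that binds to the matrix and that blocks ADAM17 and ADAMTS proteases as well as MMPs. The brightest of its 4 probe sets gave 4724.1, 5782 and 6444.6 units in control, 4239.8, 6602.6 and 6298.2 at 24 h, and 4850.6, 5590.5 and 5447.5 at 48 h. Replicate 1 was lowest in each group. The log2 means were 12.45 ± 0.17 in control, 12.42 ± 0.29 at 24 h and 12.38 ± 0.10 at 48 h (SD, n = 3). Both times lay near control, at 0.979-fold (95% CI 0.764 to 1.25) and 0.948-fold (0.74 to 1.21). At 48 h against 24 h all 4 Timp3 probe sets were lower, by log2 differences of -0.33 to -0.05, and none passed. The lowest of these, probe set 1419088_at, gave 510.2, 399.1 and 616 units at 24 h and 474.2, 273.3 and 459 at 48 h, and was lower in 3 of 3 same-number pairs.

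**Figure D2:**
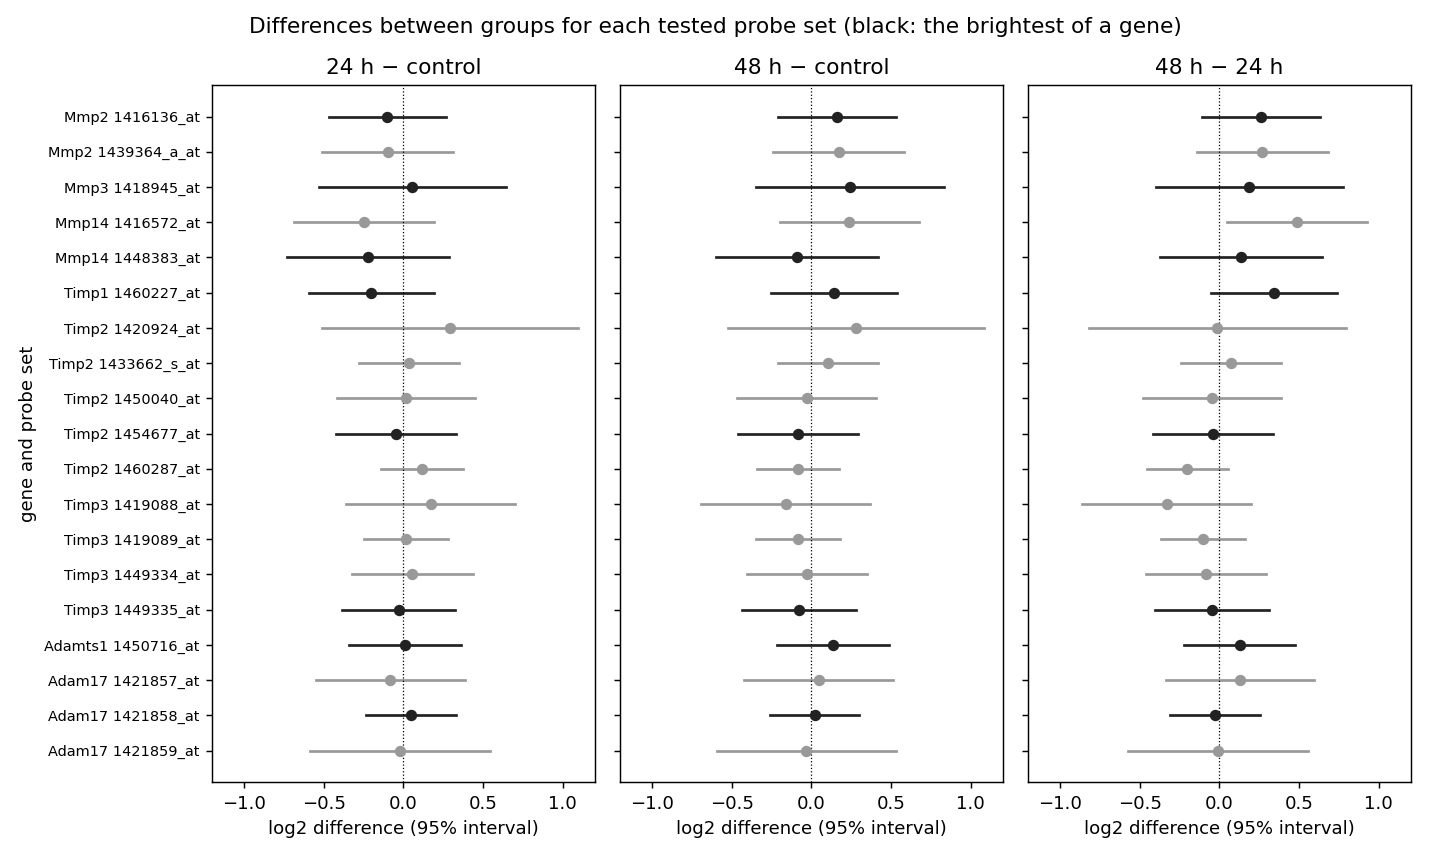
Log2 difference between group means with its 95% interval (horizontal axis) for each of the 19 tested probe sets (vertical axis) in 3 panels, 24 h minus control, 48 h minus control and 48 h minus 24 h, with the brightest probe set of each gene in black. The intervals include 0 in all but 1 case, the dimmer Mmp14 probe set at 48 h minus 24 h.

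Across the set, 24 h against control had 3 of 8 genes higher and 5 lower, with a median log2 difference of -0.04, beside 50.7% of all genes higher and a median of 0.002. For 48 h against control 5 were higher and 3 lower with a median of 0.08, beside 47.8% higher and a median of -0.005. For 48 h against 24 h the counts were again 5 and 3 with a median of 0.13, beside 47.5% higher and a median of -0.007. The first 2 comparisons share their control arrays, and the third sets the times against each other directly. Over the 8 genes and 3 comparisons the lowest 95% limit was 0.602-fold (Mmp14, 24 h against control) and the highest 1.78-fold (Mmp3, 48 h against control). The Timp2 probe set 1420924_at had wider intervals, with limits of 0.568-fold at 48 h against 24 h and 2.14-fold at 24 h against control. In limma without the replicate block, an unadjusted p below 0.05 was found for 0, 0 and 1 of the 19 probe sets. For all probe sets the shares were 1.16%, 1.42% and 1.78%. With the replicate block the counts were 1, 0 and 2 of 19, against 3.47%, 4.65% and 5.56% of all, and 0 passed after adjustment. The brighter Mmp14 probe set was the 1 at 24 h against control. The dimmer Mmp14 probe set and Timp2 probe set 1460287_at were the 2 at 48 h against 24 h. Groups did not overlap for 0 and 0 of 19 in the comparisons with control, against 3.88% and 4.48% of all, and for 2 of 19 at 48 h against 24 h (1 above, 1 below), against 4.58% of all.

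The arrays also differed by replicate number. The labels give replicates 1, 2 and 3 to each group, and an F-test over the numbers in limma, with group in the model, called 5 of 19 probe sets and 2 of 8 genes by their brightest probe set (Mmp14 and Mmp3). All 5 were higher in replicate 1. The brighter Mmp14 probe set was 0.42 higher on the log2 scale in the 3 arrays numbered 1 than in the mean of numbers 2 and 3 (adjusted p = 0.0168), and Mmp3 was 0.54 higher (adjusted p = 0.0481). Probe set 1420924_at of Timp2 was 0.81 higher (adjusted p = 0.0429). The 2 dimmer Adam17 probe sets were 0.49 and 0.52 higher (adjusted p = 0.0153 and 0.0223), and the brightest was 0.23 higher without passing (adjusted p = 0.0813). Both this count and that over all probe sets changed with single arrays. Without control replicate 1 or 24 h replicate 1, 0 of 19 probe sets passed, against 2.51% and 3.34% of all. Leaving out 48 h replicate 1 left 1 (5.43% of all), and leaving out 24 h replicate 2 or 3 left 2 (7.06% and 7.84%). Control replicate 2 or 48 h replicate 2 left 3 (11% and 5.49%), 48 h replicate 3 left 5 (10.2%) and control replicate 3 gave 7 (16.2%).

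In 7 of 19 probe sets the 3 arrays numbered 1 lay above the other 6, against 10.7% of all probe sets, and in 2 of 19 they lay below, against 12.6%. The 7 were Mmp3, the brighter Mmp14 probe set, 2 of Timp2 and all 3 of Adam17. The 2 below were the brightest probe sets of Timp2 (log2 difference -0.31, adjusted p = 0.0586) and Timp3 (-0.32, adjusted p = 0.0757). Timp2 thus had probe sets on either side, and Timp3 probe sets differed in sign as well, from -0.32 to 0.30. For Timp2 and Timp3 the direction by number therefore depended on the probe set read. Every tested probe set of Mmp2, Mmp14 and Adam17 was higher in mean in the arrays numbered 1.

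**Figure D3:**
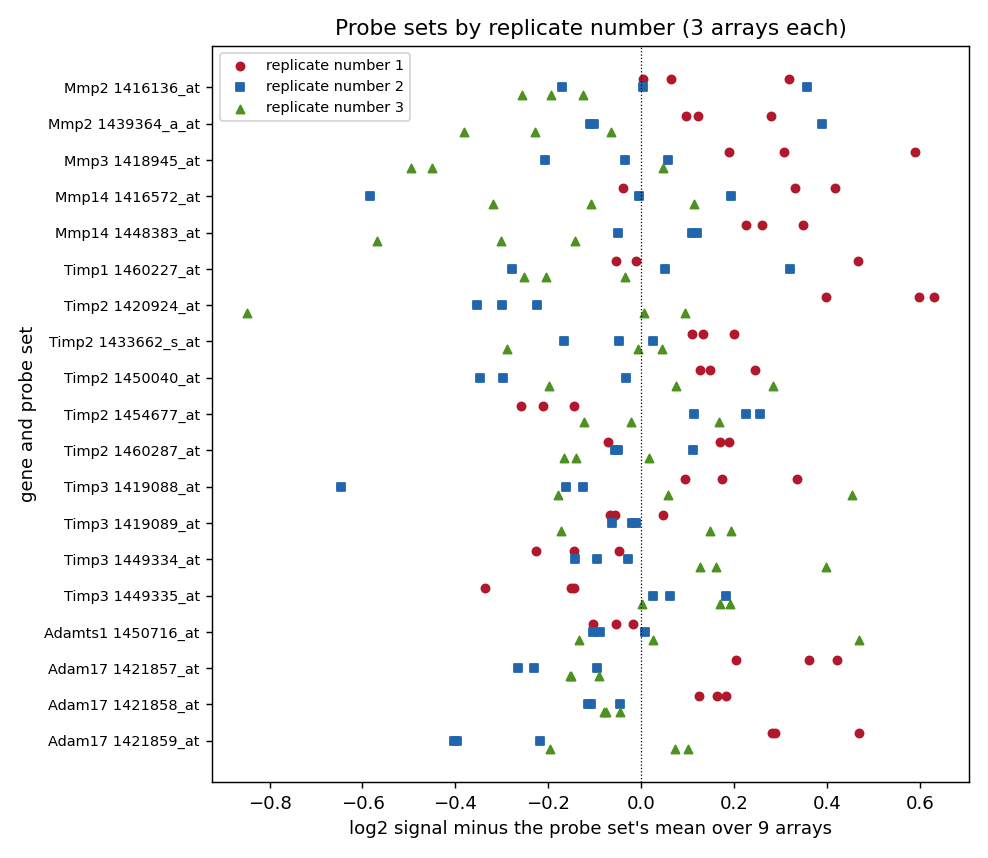
Log2 signal of each array minus the probe set's mean over 9 arrays (horizontal axis) for the 19 tested probe sets (vertical axis), with marker shape and colour for the replicate number, 3 arrays each. Arrays numbered 1 lie right of the other 6 for 7 probe sets and left of them for the brightest Timp2 and Timp3 probe sets.

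Mean levels of some marker lists and the signal of a control probe set also differed by number. By the same F-test 3 of 10 fibroblast, 2 of 10 lung epithelium and 5 of 6 smooth muscle markers passed, beside 16.6% of all probe sets. So did 4 of 9 heart muscle, 3 of 10 macrophage, 1 of 8 endothelium and 1 of 3 skeletal muscle markers. Of neutrophil markers 0 of 7 passed, and 0 of 5 each for adipocytes, B cells and T cells. The mean log2 signal of 10 fibroblast markers was 11.56, 11.54 and 11.61 on the arrays numbered 1, against 11.27 to 11.40 on the other 6, with 10 of 10 detected everywhere. That of 10 lung epithelium markers was 12.26, 12.23 and 12.22, against 12.37 to 12.46. For 6 smooth muscle markers tested of 7 it was highest for number 1 and lowest for number 3 in each group, with 10.30 and 9.69 in control, 10.25 and 9.60 at 24 h, and 10.44 and 9.85 at 48 h, the order of the brighter Mmp14 probe set. The 3′ control probe set for 18S ribosomal RNA read 6177.9, 1220.2 and 523.6 units in control replicates 1, 2 and 3, 6406.8, 1358.2 and 2342 at 24 h, and 4823.6, 614.7 and 2641.1 at 48 h. It was highest in replicate 1 of each group.

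Within groups, 2 of 19 probe sets ranked the arrays exactly as the 18S probe set did in all 3 groups, against 3.7% of all probe sets, and 2 of 19 ranked them in exactly the opposite order, against 4.36%. The first were Timp2 probe sets 1420924_at and 1433662_s_at. The second were the brightest probe sets of Timp2 and Timp3. The part of cell makeup and of ribosomal RNA in the differences by number was not tested.

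**Figure D4:**
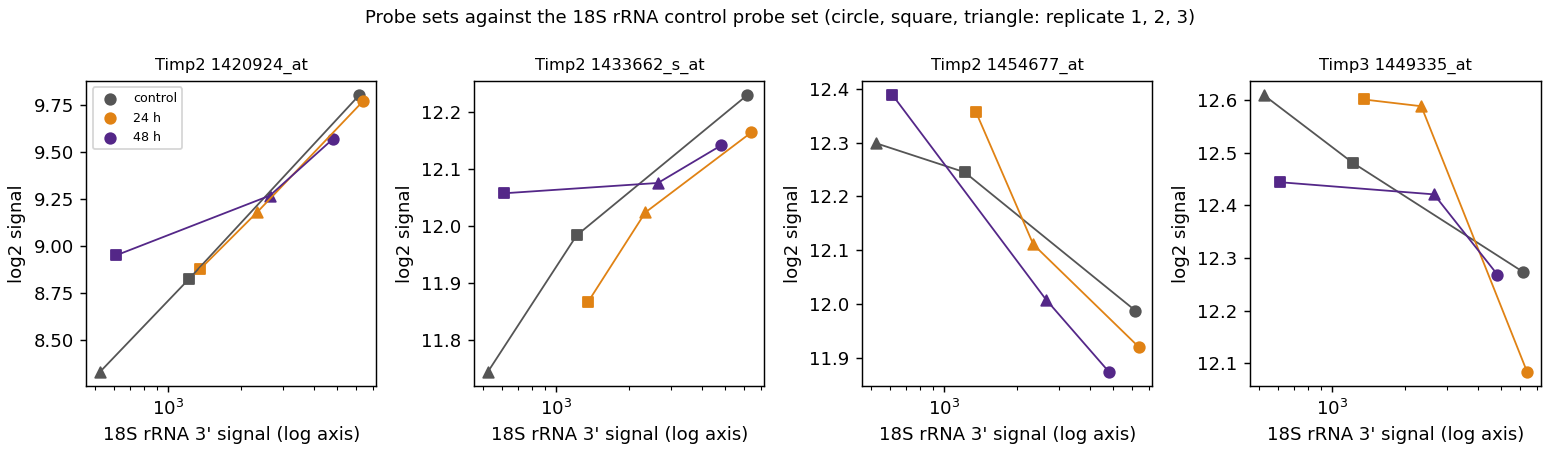
Log2 signal (vertical axes) of 3 Timp2 and 1 Timp3 probe sets against the signal of the 18S ribosomal RNA 3′ control probe set (horizontal axes, log scale) on the 9 arrays, joined within each group, with circle, square and triangle for replicates 1, 2 and 3. In every group the lines slope upward with the 18S signal in the first 2 panels and downward in the last 2. The probe sets were picked for this order.

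The rest of the protease system was read from lists of related genes. Of 14 other MMP genes on the array, 6 were detected on all 9 arrays and 5 on none, among the latter Mmp7, Mmp10 and the Mmp1b gene between Mmp3 and Mmp12. Of 8 tested, 0 passed in any comparison and 6 had a higher mean at 48 h than at 24 h, beside 47.5% of all genes. The list's mean log2 signal was higher at 48 h in the replicate 1 pair alone (7.34 against 6.87). It was lower in pairs 2 (6.75 against 6.77) and 3 (6.51 against 6.59). The replicate 1 pair holds the array with the highest neutrophil marker, Mmp8 and Mmp9 signals, and the part of neutrophils in this list was not tested. Mmp16, a membrane-type MMP, had the only unadjusted p below 0.05 in this list. It stood at 1.27-fold (95% CI 1.01 to 1.58) at 24 h and 1.31-fold (1.05 to 1.64) at 48 h against control, with signals of 30.5 to 54.6 units and detection on 7 of 9 arrays. Of 24 other ADAM genes 7 were detected on all arrays and 12 on none, and of 9 tested 0 passed. Adam10, the closest relative of Adam17, was detected on all arrays at 1764.9 to 2285.2 units.

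Of 8 other genes of the ADAMTS family 6 were tested and 0 passed. Adamts8, a protease strongly expressed in lung, gave 123.8, 79.4 and 111.8 units at 24 h and 148.9, 159.2 and 157.9 at 48 h, so that the times did not overlap. It was 1.45-fold higher in mean at 48 h than at 24 h (95% CI 1.12 to 1.86, limma unadjusted p = 0.00883, adjusted p = 0.99995), and control lungs, at 124.9, 170.1 and 123.1, overlapped both. Adamtsl4, a matrix protein of this family without a protease domain, gave 643.7, 710.3 and 696.2 units in control and 496.5, 496.8 and 549.2 at 24 h. Its 24 h level was 0.767-fold that of control (95% CI 0.638 to 0.921, limma unadjusted p = 0.00924, adjusted p = 0.9996), and it did not pass. Adamtsl5 was at 1.45-fold at 24 h (1.04 to 2.04), likewise without passing.

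Among 9 other inhibitors and clearance factors on the array, 7 were tested and 0 passed. Timp4, the fourth TIMP, ran from 50.8 to 113.5 units, and Reck, a membrane-bound MMP inhibitor, from 1463.6 to 1756.4. Of 15 tested activators and partners, such as the proprotein convertase Furin, the plasminogen activator Plat and the MMP inducer Bsg, 0 passed. At 48 h 9 were higher than at 24 h, beside 47.5% of all genes. Of 14 tested proteins that Adam17 is known to shed, 0 passed in any comparison, with medians of -0.04, 0.007 and 0.01 in the order 24 h against control, 48 h against control and 48 h against 24 h. Tnf, the substrate that named the enzyme, was detected on 0 of 9 arrays.

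Matrix substrates of these proteases were tested for 13 of 14 genes on the array, and 0 passed in any comparison. At 24 h 3 were higher than control and 10 lower, with a median log2 difference of -0.04, beside 50.7% of all genes higher. At 48 h 11 were higher than control and 2 lower with a median of 0.13, beside 47.8% of all genes higher. Against 24 h, 12 were higher at 48 h with a median of 0.16, beside the 47.5% of all genes given above. Smooth muscle markers had 5 of 6 lower at 24 h than in control and 6 of 6 higher at 48 h than at 24 h (median 0.15). Neutrophil markers had 7 of 7 higher in mean at 48 h than at 24 h (median 0.29), with 0 passing in either list. The neutrophil list's mean log2 signal was higher at 48 h in the replicate 1 pair alone (11.10 against 9.97). It was lower in pairs 2 (9.26 against 9.45) and 3 (9.35 against 9.54). Fibroblast markers had 5 of 10 higher and 5 lower at 48 h than at 24 h (median 0.012), with 0 passing. That list shares Col1a1, Col1a2, Col3a1 and Dcn with the matrix list. The part of these cell types in the matrix list was not tested. In the matrix list Dcn, the proteoglycan decorin, was the one lower at 48 h than at 24 h (log2 difference -0.23). Col1a1, the alpha 1 chain of type I collagen, gave 853.7, 900.2 and 722.8 units in control, 718.5, 616.9 and 621.7 at 24 h, and 1257.6, 1069.9 and 667.6 at 48 h. The 48 h group held the highest arrays, and its replicate 3 overlapped the 24 h group. Its 48 h level was 1.46-fold that of 24 h (95% CI 1.07 to 2), with an unadjusted p of 0.0221 and an adjusted p of 0.99995 in limma. Eln, which encodes elastin, the substrate of Mmp12, had a log2 difference of 0.42 in this comparison, with signals of 283 to 1888.9 units and a replicate number effect (adjusted p = 0.00808).

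Genes with array patterns most like those of the proteases and inhibitors were ranked by Pearson r over the 9 arrays after the mean of each replicate number was subtracted, as a description without a test. The 9 arrays share groups and numbers, and the highest correlation among all tested genes is high by selection. Nearest to Mmp2 were Bysl (0.977) and Mdn1 (0.972), to Mmp3 Bdkrb1 (0.992) and Galnt11 (0.937), and to Mmp14 Rnf19a (0.976) and Tor1b (0.963). For Adamts1 they were Tgfbr1 (0.983) and Tlr4 (0.978), and for Adam17 Arpp19 (0.965) and Fam53a (0.962). Timp1 was nearest to Dck (0.991) and Srsf1 (0.978), Timp2 to Myh14 (0.992) and Coq10a (0.991), and Timp3 to Nat8f1 (0.98) and Map3k3 (0.971). Among the 8 genes themselves the highest value was 0.66, between Mmp3 and Adamts1, and the lowest was -0.78, between Timp2 and Adamts1. Mmp2 and Mmp14 had an r of 0.25, and Timp2 had 0.19 with Mmp2 and 0.43 with Mmp14.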

How the data were processed

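The members and gene lists were chosen with earlier results of these data known. The deposited sample files give a signal intensity and a detection p-value for each of 22690 probe sets, per the file headers. The authors scaled each array, and the trimmed mean (2% at each end) was 500.1 to 500.2. The background and summary methods have no source here, and the chip type is uncertain, since the labels name a larger chip.

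The 64 control probe sets were left out of tests. The linear signal was raised by 16, taken to log2 and quantile normalised. A fold is on that scale and understates changes of dim genes. Testing required a detection p below 0.05 on all arrays of 1 or more groups, which left 15886 probe sets for 9281 genes. The tests used limma (version 3.58.1, R 4.3.3) and 1 model of 9 arrays with a mean per group, two-sided, with Benjamini-Hochberg adjustment over all of them. Intervals and p-values between groups come from that model, without replicate number, unless the replicate block is named. Of 22690 probe sets 20393 had 1 gene symbol, 691 several and 1606 none. Genes are represented by their brightest tested probe set. From each related list up to 3 genes per comparison with the smallest unadjusted p under 0.05 were named, said not to pass, and 2 genes most like each member. Genes picked beyond this after their values were seen are Mmp7, Mmp8, Mmp9, Mmp10, Mmp1b, Adam10, Timp4, Reck, Furin, Plat, Bsg, Tnf, Dcn, Eln and Cxcr2. Promoters are from RefSeq (GRCm38.p6). Unused columns of per-sample values numbered 0.

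Labels call the samples biological replicates, but the p-values cover only the spread among them, and the number of arrays limits the precision. Same-number arrays deviated together: correlations of deviations from group means were 0.275 to 0.651 in 9 pairs, against -0.561 to 0.308 in the 18 pairs that differed in number and group, so the labels' numbers were taken to pair the samples. The series table, matched within 0.051 units, equalled a file of another label in every column (22417 of 22690 values in 1 column, all in the others, with numbers 1 and 2 crossed between control files), and its linear intensity served as an alternative. Other alternatives changed the filter, offset, normalisation, probe set rule, replicate block or arrays.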

Additional observations from a re-analysis of the deposited data

How the results depend on the processing

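No comparison between groups called any of the 8 genes in limma in any of the 18 alternatives: 0 of 24 log2 differences passed each time. With the replicate block the lowest adjusted p was 0.884, so the block changed no call. Neither the block in this balanced design nor the filter can change a difference of means. With an offset of 1 or 64, 24 of 24 kept their direction. The cause of the turns below was not tested, except that the series table sets other files against each other. Log2 differences that turned, on small values, were as follows. Under the labels of the series table, 24 h against control gave -0.24 for Mmp3, 0.0899 for Mmp14, 0.087 for Timp2, 0.077 for Timp3, -0.14 for Adamts1 and -0.0193 for Adam17. There 48 h against control gave -0.26 for Mmp2, -0.19 for Mmp3, -0.34 for Timp1, 0.039 for Timp2, 0.047 for Timp3 and -0.13 for Adamts1, and 48 h against 24 h gave -0.10 for Mmp2, -0.22 for Mmp14, -0.20 for Timp1 and 0.045 for Adam17. With the mean of a gene's probe sets, Mmp14 at 48 h was 0.074 from control, Timp2 0.082 at 24 h and 0.037 at 48 h, Timp3 0.052 at 24 h, and Adam17 -0.0204 at 24 h and 0.032 at 48 h against 24 h. With median centring, Timp2 was 0.012 and Timp3 0.024 at 24 h. With the deposited scaling only, 24 h against control was 0.00081 for Timp3 and -0.012 for Adamts1, and 48 h against control -0.0074 for Adam17. With numbers 2 and 3 only, chosen after seeing the data, Timp1 at 48 h was -0.048 and Adam17 -0.00083 from control, and Timp3 at 24 h 0.052.

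Leaving out 1 array gave ranges that crossed 0 for most differences. For 24 h against control they were -0.12 to 0.28 for Mmp3, -0.16 to 0.057 for Timp2, -0.12 to 0.14 for Timp3, -0.034 to 0.037 for Adamts1 and -0.024 to 0.12 for Adam17. For 48 h against control they were -0.21 to 0.068 for Mmp14, -0.011 to 0.29 for Timp1, -0.24 to 0.021 for Timp2, -0.17 to 0.0012 for Timp3, -0.055 to 0.23 for Adamts1 and -0.073 to 0.092 for Adam17. For 48 h against 24 h they were -0.039 to 0.36 for Mmp3, -0.0900 to 0.32 for Mmp14, -0.19 to 0.073 for Timp2, -0.22 to 0.041 for Timp3, -0.065 to 0.22 for Adamts1 and -0.12 to 0.044 for Adam17. The others kept their sign over these ranges: at 24 h -0.16 to -0.06 for Mmp2, -0.42 to -6.94e-06 for Mmp14 and -0.31 to -0.05 for Timp1, at 48 h 0.05 to 0.36 for Mmp2 and 0.02 to 0.42 for Mmp3, and between the times 0.15 to 0.46 for Mmp2 and 0.19 to 0.44 for Timp1.

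The 2 genes called by replicate number became 1 without the filter and 1 with an offset of 1. They became 3 with median centring, the deposited scaling only or the mean of a gene's probe sets (17.7%, 16.9% and 16.8% of all). The count was 4 with an offset of 64 (3471 of all probe sets, 21.8%) and 5 with group left out of the model (3589, 22.6%). It was 0 with the table's labels (0 of all probe sets) and 0 with numbers 2 and 3 only (0 of all probe sets). Leaving out 1 array gave 0 to 2 genes: 0 without control replicate 1, 24 h replicate 1 or 24 h replicate 3. All probe sets called ran from 403 to 2590 there, against 2639, and were 905 without the filter and 2135 with an offset of 1. Arrays have no read depth. Signal near background limits Mmp12 and the Timp2 probe set detected on 0 arrays.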
